A study of Rattus norvegicus with 8 samples.

Results

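Transcripts of 10 genes associated with foamy macrophages were measured in rat sciatic nerve. Of their products, 7 sense, take up, carry, store or export lipid, and the other 3 are lysosomal or secreted proteins (Gpnmb, Lgals3 and Spp1). They are Gpnmb, Trem2, Apoe, Fabp5, Lgals3, Abca1, Abcg1, Plin2, Spp1 and Msr1, picked by symbol from a table of 32545 Ensembl genes, where each had 1 entry. The symbols were picked with earlier results of these data in view, so the counts of changed members describe them and are not independent evidence. All groups were outbred female Sprague Dawley rats of 3 to 6 months. PEG-fused peripheral nerve allografts (PNAs, PEG; n = 3) and negative control allografts (NC; n = 3) were excised at 14 days postoperatively (PO), and unoperated sciatic nerves (Unop; n = 2) served as controls. Both kinds of allograft came from rats that were not tissue matched, were placed without immunosuppression and were sutured after washes in calcium-free saline and methylene blue. Polyethylene glycol, a membrane fusogen, was then applied to the cut axonal ends of the PEG group and not of the NC group. RNA was taken from whole nerve tissue, so a level reflects both how many cells of a type were present and how much RNA each held, and these cannot be told apart.

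Foamy macrophages are phagocytes filled with lipid droplets. In an injured nerve they engulf myelin, whose membranes are rich in cholesterol. Scavenger receptors such as MSR1 bind modified lipids and debris, and TREM2 senses lipids at the cell surface. Inside the cell, FABP5 carries fatty acids and PLIN2 coats lipid droplets. ABCA1 and ABCG1 export cholesterol to acceptor particles that carry apolipoprotein E (APOE), and liver X receptors (LXR) induce all 3 of their genes when sterols accumulate. GPNMB and galectin-3 (LGALS3) accompany a busy lysosome, and osteopontin (SPP1) is a secreted ligand of integrins that Schwann cells also make.

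Levels are normalized read counts, that is, reads per gene divided by the size factor of the library. Each library held from 32472925 to 39959620 reads on genes. Fold changes are on the scale of log2(normalized count + 1), with standard errors (SE) and Benjamini-Hochberg adjusted p from 1 limma fit of the 8 libraries. A gene is called changed at an adjusted p under 0.05 over the 16478 genes tested, and all 10 members passed the filter on low counts. The level of macrophage transcripts was described with 13 marker genes, of which none was at 0 in every library. Their presence does not show which cells expressed the 10 members, and this was not tested. The summed normalized count of the markers was between 284167 and 366059 in PEG-fused allografts, 624708 and 855681 in NC allografts, and 33020 and 55002 in Unop nerves. In each graft 1 gene, Lyz2, gave most of this sum, so the sum largely follows Lyz2. Lyz2 gave 229938 of 366059 in PEG 1 and 646889 of 855681 in NC 2, and is named after its values were seen. The summed count of 6 markers of skeletal muscle fibres was 703578 in NC 1, 11908 in NC 2 and 258575 in NC 3, against at most 16857 in a PEG-fused allograft and at most 35649 in an Unop nerve. NC 1, and to a lesser degree NC 3, stand apart in muscle transcripts, and member results that change without NC 1 are given both ways.

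Of the 10 genes, 5 were called higher in PEG-fused than in NC allografts: Gpnmb, Trem2, Lgals3, Abca1 and Spp1. None was called lower. The other 5, Apoe, Fabp5, Abcg1, Plin2 and Msr1, did not pass the test. Among all tested genes, 15.0% were called higher and 13.9% lower in this comparison. In 6 of the 10, these 5 and Plin2, each PEG-fused allograft lay above each NC allograft, as in 25.6% of tested genes. The median log2 fold change was 0.66 over the members and 0.00 over all tested genes. With a log2 fold change above 1 as a further condition, Gpnmb, Abca1 and Spp1 remained called, beside 4.41% of tested genes. Without PEG 3 the count of called members fell to 3, as Trem2 and Lgals3 no longer passed, and without NC 1 it was 6, with Abcg1 lower and Msr1 higher in place of Lgals3.

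Against Unop nerves, 9 of the 10 genes were called higher in PEG-fused allografts, and Spp1 was not called. In NC allografts the same 9 were called higher and Spp1 was called lower. These shares stand beside 29.1% of tested genes called higher in PEG-fused allografts, 28.6% called lower in them, 32.2% called higher in NC allografts and 32.3% called lower in NC allografts. The called genes did not overlap between the groups. In PEG-fused allografts 37.3% of tested genes lay above both Unop nerves in this way, and in NC allografts 37.2% lay above and 37.4% below. Median log2 fold changes of the members were 2.56 in PEG-fused allografts and 2.46 in NC allografts, where the medians of all tested genes were 0.01 and 0.02. Both comparisons use the same 2 Unop nerves. The plot of each library shows these patterns gene by gene.

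**Figure D1:**
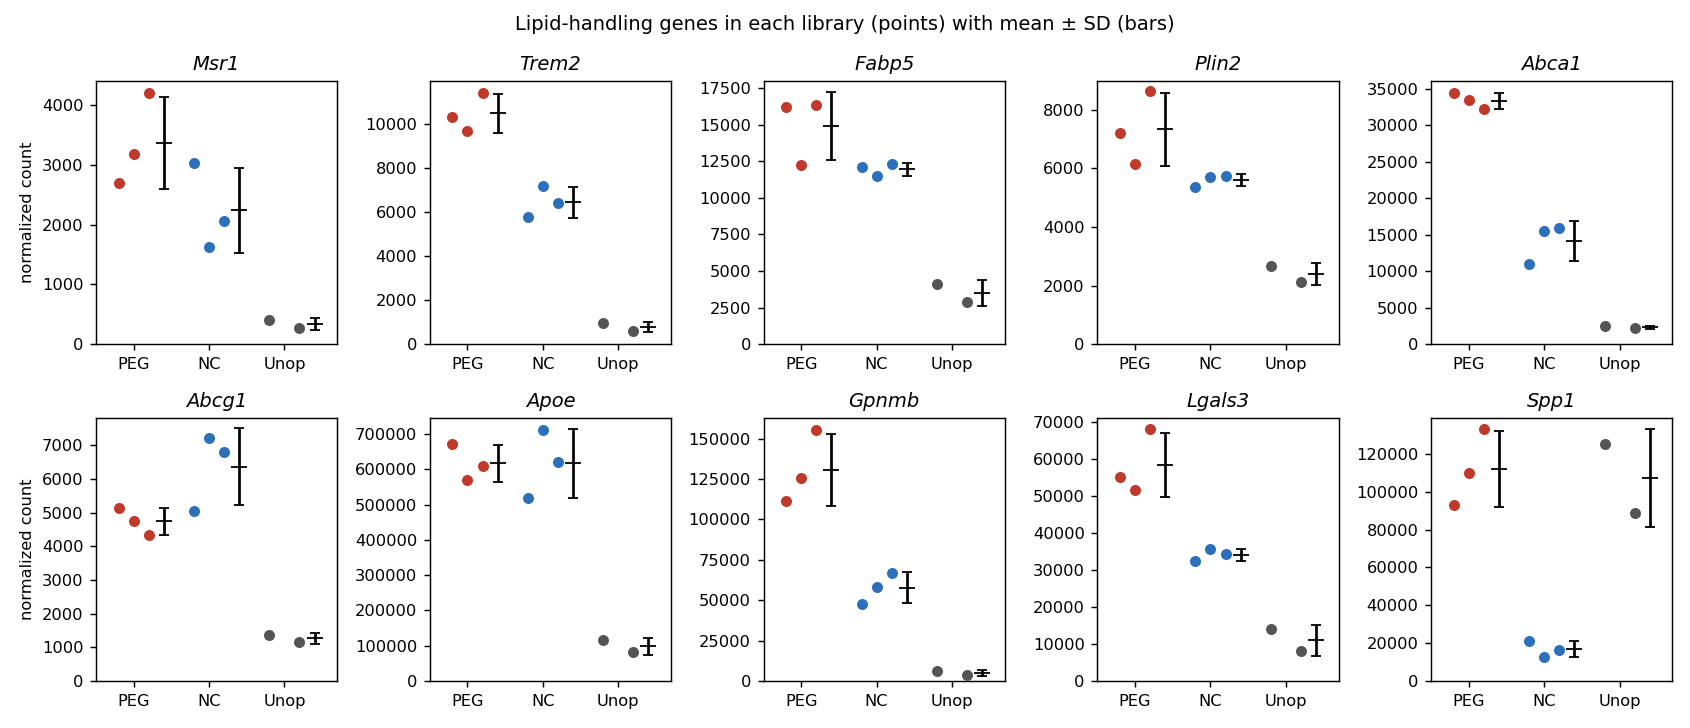
Normalized count (y axis, from 0) of each of the 10 genes in the 3 PEG-fused allografts (red), 3 NC allografts (blue) and 2 Unop nerves (grey), with the mean and SD of each group as a black bar. Each point is a library; Unop nerves lie below both kinds of allograft in 9 panels, and in the Spp1 panel NC allografts lie lowest.

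RefSeq gives a window around the start site (assembly GRCr8) for 6 of the 10 genes. The 250 bases before the start site are shown for the 4 called genes that have one, since these were called in the same direction between PEG-fused and NC allografts. Positions are counted back from the start site, and each sequence reads 5' to 3' on the strand of the gene. Capitals mark the E-box CACGTG, the AP-1 site TGAGTCA and the nuclear receptor half-site AGGTCA on either strand.
Gpnmb: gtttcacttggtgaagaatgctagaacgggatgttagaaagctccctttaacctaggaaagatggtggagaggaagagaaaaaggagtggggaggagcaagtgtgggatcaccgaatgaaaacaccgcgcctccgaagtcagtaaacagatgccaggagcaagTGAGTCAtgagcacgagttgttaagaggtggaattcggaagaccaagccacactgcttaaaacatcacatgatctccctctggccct
Trem2: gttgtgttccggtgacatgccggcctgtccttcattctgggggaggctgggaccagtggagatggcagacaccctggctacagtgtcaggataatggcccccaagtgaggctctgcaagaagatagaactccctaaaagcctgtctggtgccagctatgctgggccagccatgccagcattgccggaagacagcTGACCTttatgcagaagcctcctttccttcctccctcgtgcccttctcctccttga
Abca1: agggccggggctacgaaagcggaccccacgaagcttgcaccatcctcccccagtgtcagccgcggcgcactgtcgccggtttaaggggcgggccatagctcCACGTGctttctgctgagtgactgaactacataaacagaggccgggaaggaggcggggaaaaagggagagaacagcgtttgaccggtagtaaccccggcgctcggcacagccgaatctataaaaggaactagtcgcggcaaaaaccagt
Spp1: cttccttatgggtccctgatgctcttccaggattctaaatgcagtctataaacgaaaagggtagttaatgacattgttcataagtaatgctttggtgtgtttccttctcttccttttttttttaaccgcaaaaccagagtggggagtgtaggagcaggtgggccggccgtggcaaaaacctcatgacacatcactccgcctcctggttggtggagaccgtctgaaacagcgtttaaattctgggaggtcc

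The stretch before Gpnmb (chr4:79340878-79341127, plus strand) holds an AP-1 site that begins at -87. The stretch before Trem2 (chr9:20151780-20152029, minus strand) holds the nuclear receptor half-site, read as its complement, at -56. An E-box begins at -149 before Abca1 (chr5:72596474-72596723, minus strand). None of these letters stands before Spp1 (chr14:5619805-5620054, minus strand). Among all 33469 RefSeq windows of 300 bases, 4.63% hold TGAGTCA, 16.2% hold AGGTCA and 6.42% hold CACGTG. The direct repeat DR4, the half-site repeated at the spacing that LXR prefers, is in 0.00598% of windows and GAGGAAGT, a PU.1-type site, is in 2.42%. Neither is in a window of a member in this exact form. Only 2 of the 33469 windows hold the exact DR4, and repeats with a changed letter were not searched. Its absence therefore cannot show whether a member, Abca1 included, has a site for LXR. Of the members that were not called, Plin2 has an E-box that begins at -67. The matches are descriptions of the letters and no binding was measured.

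For uptake, Msr1 (ENSRNOG00000012779) encodes a class A scavenger receptor. Its normalized counts were 2693, 3180 and 4201 in PEG-fused allografts, 3021, 1630 and 2056 in NC allografts, and 409 and 271 in Unop nerves. NC 1 lay above PEG 1, so the 2 kinds of graft overlapped, and every graft lay above both Unop nerves. The means were 3358 ± 770 (SD, n = 3), 2236 ± 713 (SD, n = 3) and 340 ± 97 (SD, n = 2). The log2 fold change of 0.61 (SE 0.26) between PEG-fused and NC allografts did not pass the test (limma adjusted p = 0.115). Without NC 1, the library richest in muscle transcripts, it was 0.85 with an adjusted p of 0.0335. Msr1 was 9.87-fold higher in PEG-fused allografts and 6.57-fold higher in NC allografts than in Unop nerves, as ratios of means.

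For lipid sensing, Trem2 (ENSRNOG00000013578) encodes a receptor that signals through the adaptor TYROBP. Normalized counts of Trem2 were 10330, 9682 and 11400 in PEG-fused allografts, 5754, 7169 and 6388 in NC allografts, and 947 and 609 in Unop nerves. The 3 groups did not overlap, with PEG-fused allografts highest and Unop nerves lowest. The mean of 10471 ± 868 (SD, n = 3) in PEG-fused allografts was 1.63 times that of 6437 ± 709 (SD, n = 3) in NC allografts, a log2 fold change of 0.70 (SE 0.16, limma adjusted p = 0.0146). Without PEG 3 the difference was 0.64 and no longer passed (adjusted p = 0.0549). Against Unop nerves the log2 fold change was 3.78 in PEG-fused allografts and 3.08 in NC allografts. Tyrobp, which encodes the adaptor, was at 14841 ± 2107 (SD, n = 3) in PEG-fused allografts and 18484 ± 2164 (SD, n = 3) in NC allografts and was not called (limma adjusted p = 0.287). It is named after its values were seen.

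For carriage and storage, Fabp5 (ENSRNOG00000049075) encodes a fatty acid binding protein. Across libraries its normalized counts were 16179, 12263 and 16363 in PEG-fused allografts, 12079, 11466 and 12338 in NC allografts, and 4133 and 2889 in Unop nerves. PEG 2 lay within the range of the NC allografts, while PEG 1 and PEG 3 lay above it. The log2 fold change was 0.31 (SE 0.16, limma adjusted p = 0.176) between the 2 kinds of graft, and it was 2.10 in PEG-fused and 1.79 in NC allografts against Unop nerves. Plin2 (ENSRNOG00000007060) encodes the droplet coat protein perilipin 2. Perilipin 2 transcripts had normalized counts of 7197, 6137 and 8650 in PEG-fused allografts, 5378, 5702 and 5734 in NC allografts, and 2664 and 2139 in Unop nerves. PEG-fused allografts lay above NC allografts without overlap, but the log2 fold change of 0.37 (SE 0.14) did not pass the test (limma adjusted p = 0.0725). Without PEG 2, the lowest of the group, the adjusted p was 0.0407, and DESeq2 gave 0.0380. Among pairs of the 10 genes, Fabp5 and Lgals3 had the nearest profiles, with a root-mean-square difference of 0.239 in gene-centred log2 levels over the 8 libraries, followed by Fabp5 and Plin2 at 0.247.

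Of the genes of cholesterol export, Abca1 was called higher in PEG-fused than in NC allografts, and Abcg1 and Apoe were not called. Abca1 (ENSRNOG00000018126) encodes the transporter that loads cholesterol onto lipid-poor particles. In normalized counts Abca1 stood at 34345, 33502 and 32185 in PEG-fused allografts, 10997, 15560 and 15882 in NC allografts, and 2428 and 2165 in Unop nerves. The 3 groups did not overlap, with the PEG-fused allografts close to each other and NC 1 lowest among the grafts. The mean of 33344 ± 1088 (SD, n = 3) in PEG-fused allografts was 2.36 times that of 14146 ± 2732 (SD, n = 3) in NC allografts, a log2 fold change of 1.26 (SE 0.14, limma adjusted p = 0.00103). It was 14.5-fold higher in PEG-fused and 6.16-fold higher in NC allografts than in Unop nerves.

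Abcg1 (ENSRNOG00000001158) encodes the transporter that passes cholesterol on to larger lipoproteins. Normalized counts of Abcg1 were 5150, 4749 and 4340 in PEG-fused allografts, 5059, 7213 and 6803 in NC allografts, and 1374 and 1156 in Unop nerves. NC 1 lay among the PEG-fused allografts and the other two NC allografts lay above them. The log2 fold change was -0.41 (SE 0.15, limma adjusted p = 0.0673), the lowest of the members. Without NC 1 it was -0.57 with an adjusted p of 0.0107, and DESeq2 gave an adjusted p of 0.0318. Against Unop nerves it was 1.91 in PEG-fused allografts and 2.32 in NC allografts.

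Apoe (ENSRNOG00000018454) encodes the apolipoprotein that accepts the exported cholesterol. Apoe had normalized counts of 672272, 569109 and 609317 in PEG-fused allografts, 517938, 712062 and 622453 in NC allografts, and 115567 and 80919 in Unop nerves. The PEG-fused allografts lay inside the range of the NC allografts. The means of 616899 ± 51998 (SD, n = 3) and 617484 ± 97158 (SD, n = 3) gave a log2 fold change of 0.01 (SE 0.29, limma adjusted p = 0.989), whose sign turned under 3 alternatives. Both kinds of graft were above Unop nerves, by 6.28-fold in PEG-fused and 6.29-fold in NC allografts.

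Among the lysosomal and secreted proteins, Gpnmb (ENSRNOG00000008816) encodes a membrane glycoprotein of late endosomes and lysosomes. Normalized counts of Gpnmb were 111446, 125350 and 155280 in PEG-fused allografts, 47804, 58012 and 66965 in NC allografts, and 6066 and 3530 in Unop nerves. No 2 groups overlapped. The mean of 130692 ± 22400 (SD, n = 3) was 2.27 times that of 57594 ± 9587 (SD, n = 3) in NC allografts, a log2 fold change of 1.18 (SE 0.23, limma adjusted p = 0.00741). It was 27.2-fold higher in PEG-fused allografts and 12.0-fold higher in NC allografts than in Unop nerves, in both cases the highest such ratio of the 10 genes.

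Lgals3 (ENSRNOG00000010645) encodes galectin-3, a lectin that binds glycoproteins and damaged lysosomes. Lgals3 had normalized counts of 55212, 51665 and 68161 in PEG-fused allografts, 32368, 35568 and 34260 in NC allografts, and 13947 and 8056 in Unop nerves. The groups did not overlap, and the log2 fold change between PEG-fused and NC allografts was 0.77 (SE 0.20, limma adjusted p = 0.0246). This call was lost without PEG 1, PEG 3, NC 1 or NC 3, at log2 fold changes between 0.65 and 0.80 and adjusted p between 0.0543 and 0.0860. Against Unop nerves the log2 fold change was 2.45 in PEG-fused and 1.68 in NC allografts.

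Spp1 (ENSRNOG00000043451) encodes osteopontin, and of the members it alone was not called higher in allografts than in Unop nerves. Normalized counts of Spp1 were 92747, 109995 and 133087 in PEG-fused allografts, 21038, 12807 and 16517 in NC allografts, and 125466 and 88731 in Unop nerves. NC allografts were lowest, and the PEG-fused allografts spanned about the same range as the Unop nerves. The mean was 111943 ± 20241 (SD, n = 3) in PEG-fused allografts, 16787 ± 4122 (SD, n = 3) in NC allografts and 107099 ± 25976 (SD, n = 2) in Unop nerves. The log2 fold change was 2.75 (SE 0.23, limma adjusted p = 0.000467) between PEG-fused and NC allografts and -2.68 (SE 0.26, limma adjusted p = 3.72e-05) between NC allografts and Unop nerves. Between PEG-fused allografts and Unop nerves it was 0.07 (SE 0.26, limma adjusted p = 0.833), and its sign turned without PEG 3 or without Unop 2. The summed count of 7 repair Schwann cell markers was between 25845 and 32867 in PEG-fused allografts, 11916 and 14431 in NC allografts, and 4559 and 5821 in Unop nerves. For 8 markers of Schwann cells the sum was between 67460 and 73347, 24243 and 70768, and 2045820 and 2429870 in the same order. The part of these cells in the Spp1 level was not tested.

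**Figure D2:**
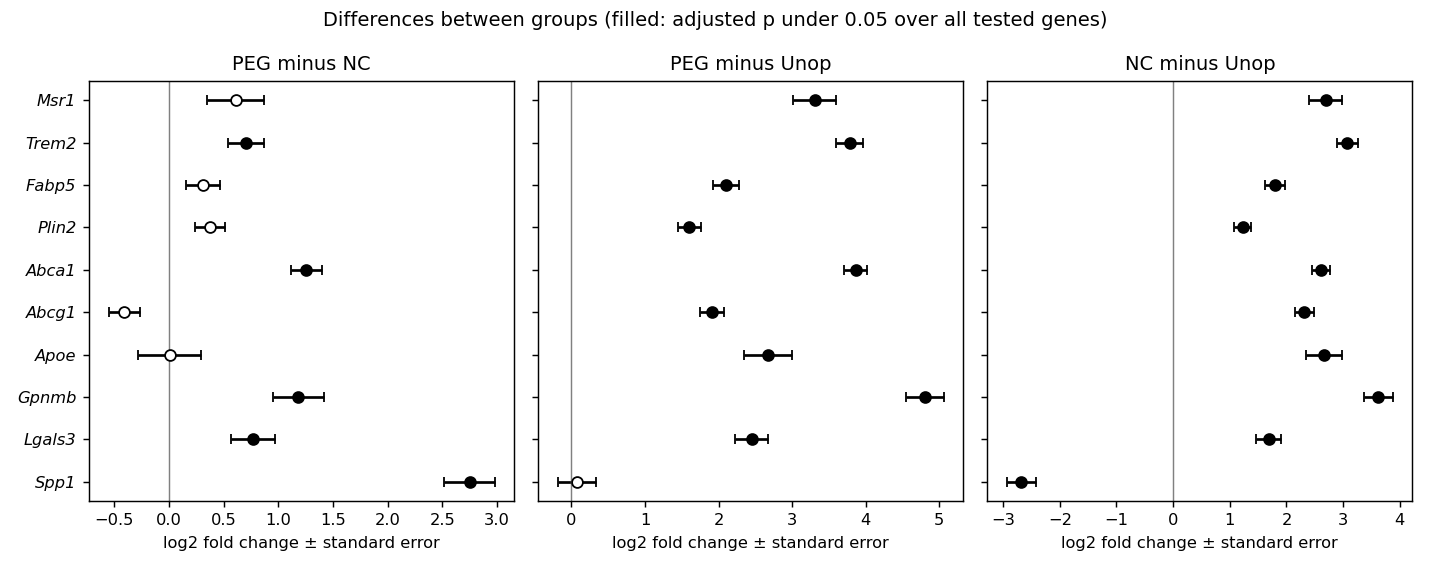
Log2 fold change (x axis) of each of the 10 genes (y axis) with its standard error, for PEG minus NC, PEG minus Unop and NC minus Unop; filled points passed an adjusted p under 0.05 over all tested genes. In the first panel 5 points are filled and Spp1 lies farthest right, and in the last panel Spp1 alone lies left of 0.

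Unop 1 was above Unop 2 for 10 of the 10 genes, as for 52.7% of all tested genes. The mean log2 level of the macrophage markers was also higher in Unop 1, at 10.79 against 10.07. Summed counts of the other marker lists were higher in Unop 1 too, such as muscle fibres at 35649 against 6082. The exception was the Schwann cell list, at 2045820 in Unop 1 against 2429870 in Unop 2. The part of any of these cells in that order was not tested. Among PEG-fused allografts, PEG 3 held the highest value for 7 genes and PEG 1 for 3. Among NC allografts the highest value was in NC 1 for 2 genes, in NC 2 for 4 and in NC 3 for 4.

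Most macrophage markers were lower in PEG-fused than in NC allografts. Of the 13, 9 were called lower and none was called higher, with a median log2 fold change of -0.72. Of all tested genes, 13.9% were called lower and 15.0% higher. Without PEG 2, 4 were called lower, and without PEG 3 or without NC 3, 5 were. Lyz2, the macrophage lysozyme, was at 196231 ± 29452 (SD, n = 3) in PEG-fused and 569741 ± 115069 (SD, n = 3) in NC allografts. Cd68, a lysosomal membrane protein of macrophages, was at 20979 ± 1293 (SD, n = 3) and 16470 ± 2455 (SD, n = 3) and was not called (limma adjusted p = 0.264). Lyz2 and Cd68 were chosen after their values were seen. All 13 markers were called higher in each kind of graft than in Unop nerves, beside 29.1% of tested genes in PEG-fused and 32.2% in NC allografts. T cell markers, 6 genes, summed to between 735 and 2463 in PEG-fused allografts and between 11645 and 23723 in NC allografts. Adipocyte markers, 7 genes that include droplet proteins, summed to between 3830 and 9710 in the grafts and between 58470 and 101795 in Unop nerves.

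Each gene was also expressed relative to the macrophage markers of its own library, as its log2 level minus their mean, a description without a test. The marker mean was 12.97 ± 0.13 (SD, n = 3) in PEG-fused allografts, 13.66 ± 0.15 (SD, n = 3) in NC allografts and 10.43 ± 0.51 (SD, n = 2) in Unop nerves. On this scale 10 of the 10 genes lay higher in PEG-fused than in NC allografts without overlap, but so did 70.1% of tested genes. Subtracting the marker mean shifts the difference between 2 groups by the same amount for every gene. The marker mean of PEG-fused minus NC allografts was -0.69. The differences below therefore restate the earlier log2 fold changes with this shift and are not a further result. The difference between the group means was 3.44 for Spp1, 1.95 for Abca1, 1.87 for Gpnmb, 1.46 for Lgals3 and 1.39 for Trem2. It was 1.30 for Msr1, 1.06 for Plin2, 1.00 for Fabp5, 0.70 for Apoe and 0.28 for Abcg1.

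Relative to the same markers, Gpnmb, Trem2, Abca1 and Msr1 lay higher in PEG-fused allografts than in Unop nerves without overlap, where 3.25% of tested genes did. Fabp5, Abcg1, Plin2 and Spp1 lay lower, as did 90.1% of tested genes, and Apoe and Lgals3 overlapped. Of the members, Gpnmb lay higher in NC allografts than in Unop nerves, beside 3.95% of tested genes, Msr1 overlapped and the other 8 lay lower, beside 90.0%. Gpnmb stood at 2.14 ± 0.13 (SD, n = 3) against 1.75 ± 0.05 (SD, n = 2). Trem2 was at 0.38 ± 0.12 (SD, n = 3) in PEG-fused allografts, -1.02 ± 0.08 (SD, n = 3) in NC allografts and -0.86 ± 0.06 (SD, n = 2) in Unop nerves. Relative to these markers, the Trem2 level minus that of Unop nerves was -0.16 in NC allografts and 1.23 in PEG-fused allografts. The other cells that can express these genes were not separated.

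**Figure D3:**
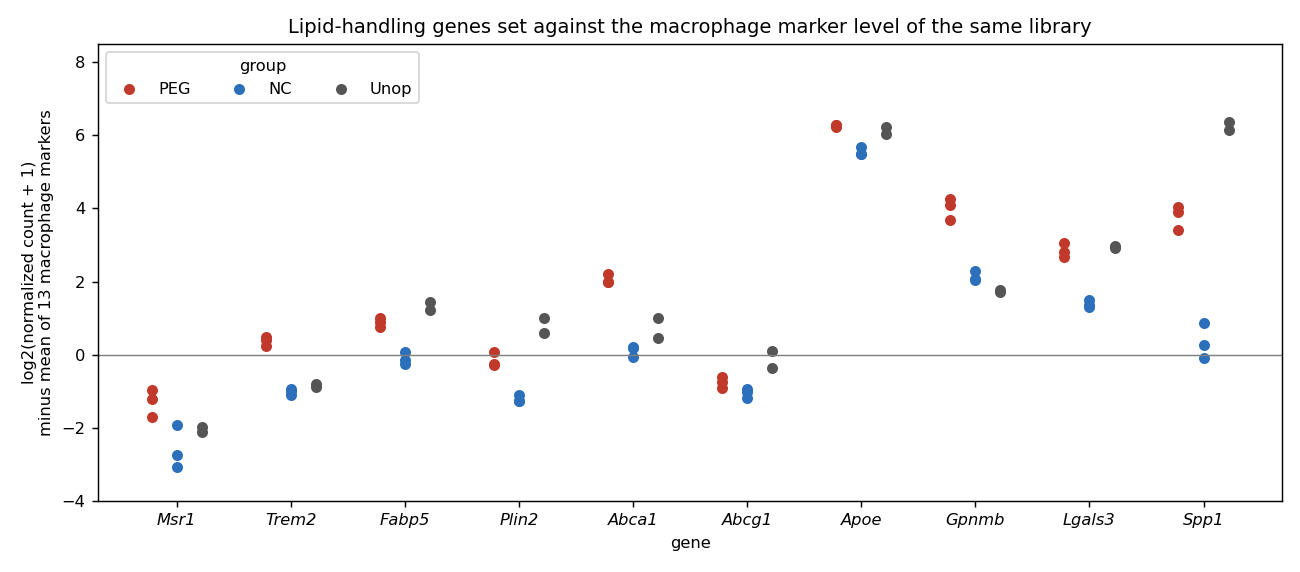
Log2 level of each of the 10 genes (x axis) minus the mean log2 level of 13 macrophage markers in the same library (y axis), for PEG-fused allografts (red), NC allografts (blue) and Unop nerves (grey); each point is a library. PEG-fused allografts lie above NC allografts for each gene, as for 70.1% of tested genes, and Unop nerves lie highest for Spp1.

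Other genes of the same pathways did not follow 1 direction between PEG-fused and NC allografts, where 15.0% of tested genes were called higher and 13.9% lower. In cholesterol efflux and the LXR pathway, 4 of 16 tested genes were called higher and 2 lower in PEG-fused than in NC allografts, with a median log2 fold change of 0.19. Pltp, the phospholipid transfer protein and a known LXR target, was at 31290 ± 4209 (SD, n = 3) in PEG-fused and 16219 ± 3944 (SD, n = 3) in NC allografts, a log2 fold change of 0.97 (SE 0.22, limma adjusted p = 0.0126). Apoc2, an activator of lipoprotein lipase, was low throughout, at 26.4 ± 4.5 (SD, n = 3) against 5.04 ± 2.62 (SD, n = 3). Nr1h2, which encodes LXR beta, was lower by a log2 fold change of -0.40 (SE 0.09, limma adjusted p = 0.0108), and Abca7, a relative of Abca1, by -0.64 (SE 0.15, limma adjusted p = 0.0153). Without PEG 2 the counts were 1 higher and 1 lower, and Pltp and Abca7 just missed the threshold (adjusted p of 0.0517 and 0.0503). The call of Abca7 was also lost without PEG 3 (adjusted p = 0.0505).

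Of 15 genes of lipid uptake and scavenger receptors, 1 was called higher and 4 lower, with a median of -0.16. Cxcl16, a scavenger receptor and chemokine, was called lower, at 3535 ± 669 (SD, n = 3) in PEG-fused and 13643 ± 1359 (SD, n = 3) in NC allografts. Marco, a relative of Msr1, was called lower, and stood at 0.93, 0 and 0 in PEG-fused allografts and at 3.57, 29.0 and 13.5 in NC allografts. The gene called higher was Stab1, a receptor for modified lipoproteins, whose groups overlapped and which is named after its values were seen (log2 fold change 0.65, SE 0.21, limma adjusted p = 0.0461). The call of Stab1 was lost under 9 alternatives.

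Among 19 genes of lipid droplets and fatty acid handling, 6 were called higher and 7 lower, with a median of 0.15. Lipa, the lysosomal lipase that frees cholesterol from its esters, was at 15362 ± 1890 (SD, n = 3) in PEG-fused and 8443 ± 138 (SD, n = 3) in NC allografts (log2 fold change 0.86, SE 0.13, limma adjusted p = 0.00229). Dgat2, which makes triglycerides, had a log2 fold change of 1.41 (SE 0.20, limma adjusted p = 0.00214), but lay below Unop nerves in both kinds of graft. Plin1 and Plin5, the droplet coats of adipocytes and of oxidative tissue, were called lower. Plin1 was at 12.0, 7.48 and 46.0 in PEG-fused allografts, 265, 49.5 and 57.9 in NC allografts, and 6366 and 3691 in Unop nerves. The call of Plin1 was lost under 11 alternatives. Plin5 was at 18.8, 4.30 and 11.6 in NC 1, NC 2 and NC 3, in the order of their muscle markers, and at most 0.93 in PEG-fused allografts. It was higher in Unop nerves, at 79.4 and 46.3, where the muscle markers summed to 35649 and 6082, against 703578 in NC 1. The part of muscle in the Plin5 level was not tested. Without PEG 2 the counts of this list were 3 higher and 5 lower. Against Unop nerves, 14 of the 19 genes were called lower in PEG-fused allografts and 13 in NC allografts. Of all tested genes, 28.6% and 32.3% were called lower, and the list shares genes with the adipocyte markers.

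For TREM2 signalling and the phagocyte lysosome, 6 of 22 genes were called higher and 5 lower, with a median of -0.19. The lysosomal proteases Ctsd and Ctsl were higher, with log2 fold changes of 1.36 (SE 0.17, limma adjusted p = 0.00124) and 1.26 (SE 0.18, limma adjusted p = 0.0021). Cst7, an inhibitor of cysteine proteases, was at 1284, 833 and 1067 in PEG-fused allografts and 3960, 9684 and 5771 in NC allografts, a log2 fold change of -2.53 (SE 0.34, limma adjusted p = 0.00179). Tfec, a transcription factor of macrophages, was lower by -1.73 (SE 0.19, limma adjusted p = 0.000897). The other cathepsins of the list are named after their values were seen. Ctsz was lower by -1.06 (SE 0.16, limma adjusted p = 0.00248). Ctsb was higher by 0.76 (SE 0.19, limma adjusted p = 0.0185), and Ctss was not called (limma adjusted p = 0.187). Against Unop nerves, 16 of the 22 genes were called higher in PEG-fused and 15 in NC allografts, beside 29.1% and 32.2% of tested genes.

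In cholesterol synthesis, 17 of 17 genes were called lower in each kind of graft than in Unop nerves, where 28.6% of tested genes were called lower in PEG-fused and 32.3% in NC allografts. Log2 fold changes were between -5.16 and -1.41 in PEG-fused allografts and between -5.03 and -0.52 in NC allografts. Between the grafts, 1 gene was called higher and 4 lower, with a median of -0.13. Sqle, the squalene epoxidase, was at 902 ± 138 (SD, n = 3) in PEG-fused and 644 ± 99 (SD, n = 3) in NC allografts, against 4549 and 4882 in the Unop nerves. Srebf2, the transcription factor that drives the pathway, was lower in PEG-fused than in NC allografts by a log2 fold change of -0.89 (SE 0.15, limma adjusted p = 0.00461), and the synthesis enzyme Mvd by -0.59 (SE 0.17, limma adjusted p = 0.0314). The counts between the grafts varied, with from 0 to 4 genes higher and from 1 to 4 lower when 1 library was left out, and Sqle lost its call under 9 alternatives and Mvd under 5. With NC 2 left out 1 gene was called, and with PEG 1, PEG 2 or PEG 3 left out 2 were called.

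Receptors and partners of osteopontin and galectin-3 numbered 10, of which 5 were called higher and 2 lower in PEG-fused than in NC allografts, with a median of 0.52. Itgav and Itgb5, whose products pair as an integrin that binds osteopontin, had log2 fold changes of 1.08 (SE 0.17, limma adjusted p = 0.00315) and 0.79 (SE 0.13, limma adjusted p = 0.00396). Itga4, an integrin subunit of leukocytes, was lower by -1.16 (SE 0.12, limma adjusted p = 0.000667). Lgals3bp, which encodes a secreted partner of galectin-3, was at 15539 ± 1986 (SD, n = 3) in PEG-fused and 23366 ± 222 (SD, n = 3) in NC allografts and was called lower, opposite to Lgals3 itself. Without PEG 3 its adjusted p was 0.0703 and without NC 3 it was 0.0513. The counts of this list were 2 higher and 2 lower without PEG 2, and 3 higher and 1 lower without PEG 3.

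**Figure D4:**
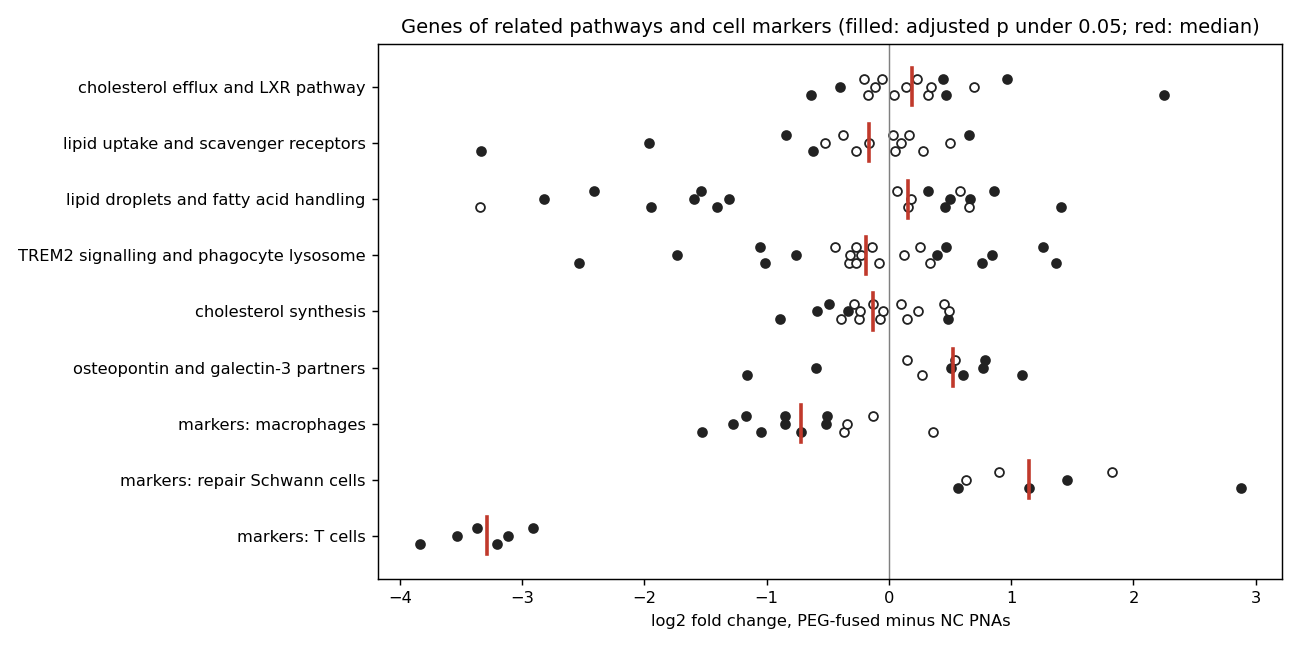
Log2 fold change of PEG-fused minus NC allografts (x axis) for each tested gene of 6 pathway lists and 3 marker lists (y axis); filled points passed an adjusted p under 0.05 and red lines are list medians. Called genes lie on both sides of 0 in each pathway list, while the called macrophage and T cell markers lie left of 0 and the called repair Schwann cell markers right of it.

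For each member, the genes with the nearest profile were found as the smallest root-mean-square difference of gene-centred log2 levels over the 8 libraries, a description without a test. Nearest to Gpnmb were Cthrc1 (0.159), the Ensembl gene AABR07030793.1 (0.169) and Cd300a (0.251). Nearest to Trem2 were Arl11 (0.131), Fam110a (0.135) and Blnk (0.169). Nearest to Lgals3 were the lysosomal genes Acp5 (0.127) and Ctsb (0.156), with St3gal5 (0.172). Plin2 stood next to Slc38a7 (0.110), Ier5l (0.113) and the lysosomal nuclease Dnase2 (0.119). Abca1 stood next to F2rl2 (0.131), AABR07026805.2 (0.177) and Ptprn (0.193), and Abcg1 next to Mapkapk3 (0.114), Tmem37 (0.124) and Znrf1 (0.132). Apoe had Ttyh3 (0.116), Sv2a (0.130) and Bco2 (0.149), Fabp5 had Steap2 (0.119), Prcp (0.138) and Gnpda1 (0.141), and Msr1 had Cebpe (0.188) and Moxd1 (0.244). For Spp1 the nearest were Slc6a15 (0.322), Nell2 (0.343) and Shh (0.353), of which Shh is one of the repair Schwann cell markers. Shh was at 348, 214 and 390 in PEG-fused allografts, 64.3, 28.0 and 37.6 in NC allografts, and 413 and 366 in Unop nerves, with NC allografts lowest, as for Spp1. Most other markers of that list had another order, and they are named after their values were seen. The means of Ngfr, Jun, Sox2, Gdnf and Gap43 were lowest in Unop nerves, and that of Olig1 in NC allografts. Spp1 differed from the other 9 members by between 1.58 for Plin2 and 2.50 for Gpnmb.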

How the data were processed

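Stranded mRNA libraries were sequenced from whole sciatic nerve tissue, 8 in all. Groups and replicate numbers follow the sample titles. The study gives each group as a number of animals equal to its number of libraries. The deposited signal values are normalized counts: per the labels and the methods, the authors used TopHat2 for alignment (Rnor 6.0), HTSeq for read counts per gene and DESeq2 for the size factors by which counts were divided. Files of the authors' own comparisons (fold changes, p-values) were not used. After division by 1 constant per library, all values were whole reads within a tolerance, with size factors between 0.800 and 1.12. The tolerance was 0.001 of a read and was widened in proportion for large counts, so the check could not fail for the highest counts. No gene lengths were used, so levels of different genes are not compared.

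Of 22798 genes with a read, the 16478 that reached 10 normalized counts in 2 or more libraries were tested with limma 3.58.1 (trend) on log2(normalized count + 1), which understates changes of low genes. The 3 contrasts came from 1 fit and share its estimate of the spread, since Unop has 2 nerves. The members, the pathway and marker lists and the alternatives were chosen with earlier results of these data known. Named genes are the members, of each pathway list the 2 called genes per direction with the largest change between PEG-fused and NC PNAs whose groups do not overlap, and the 3 nearest profiles of each member, of which 1 is not reported here. Others are said to be chosen after their values were seen. Alternatives were edgeR 4.0.16 (quasi-likelihood) and DESeq2 1.42.0 on the recovered reads, TMM factors, a pseudocount of 8, no filter, a filter of 50 counts, the 2 groups alone, a robust fit, a replicate block, a fold threshold and each library left out (R 4.3.3). The alternatives for pathway and marker genes were added after seeing the data. Promoter windows are from RefSeq (GRCr8), while the counts use Rnor 6.0. Arl4c, Cd36, Myh4 and Pecam1 were not analysed here.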

Additional observations from a re-analysis of the deposited data

How the results depend on the processing

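Of 510 values of the 10 genes under alternatives, 495 kept their direction and their side of the threshold, 5 lost their call, 5 gained one and 5 changed sign. The signs that turned belong to differences near 0. For Apoe between PEG-fused and NC PNAs they were -0.0013 with DESeq2 and between -0.11 and 0.12 with 1 library left out (negative without PEG 1 and without NC 1), and for Spp1 between PEG-fused PNAs and Unop nerves between -0.18 and 0.32 with 1 library left out (negative without PEG 3 and without Unop 2). The cause was not tested. Members called between PEG-fused and NC PNAs numbered 5 in the fit reported, 3 with a log2 fold change above 1 as a condition, 7 with DESeq2 (6 higher, 1 lower) and between 3 and 6 with 1 library left out. Members called against Unop nerves stayed at 9 for PEG-fused and 10 for NC PNAs under each alternative run. Genes called between PEG-fused and NC PNAs fell from 4763 to 1903 with the fold threshold, and lay between 2753 (without PEG 2) and 4907 with 1 library left out, where without PEG 3 there were 3126. With the fold threshold, genes called fell from 9513 to 5326 for PEG-fused PNAs and from 10627 to 6359 for NC PNAs against Unop nerves. Replicate numbers are not said to mark pairs, and deviations of same-numbered PEG-fused and NC PNAs correlated at 0.108, 0.109 and -0.05. With a replicate block, 5 members and 4165 genes were called between PEG-fused and NC PNAs. Of 22 genes named from the pathway lists, 15 kept their call under each alternative in which they were tested, which for Apoc2, Marco and Plin5 leaves out the filter of 50 counts. The fold threshold was not applied to these 22. Tyrobp, Ctsb, Ctss and Ctsz, also named from these lists, are not among the 22, and their calls were not followed under the alternatives. With 1 library left out, genes called numbered between 2 and 6 in cholesterol efflux, 8 and 12 in lipid droplets, 1 and 6 in cholesterol synthesis (3 with no filter and 3 with a replicate block), 4 and 8 among osteopontin and galectin-3 partners, and 4 and 9 among macrophage markers. Leaving out 1 Unop nerve leaves a lone nerve that is assumed to vary like the grafts.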

Other observations

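Marker genes of other nerve cells were counted in the same fit. Of all tested genes, 15.0% were called higher and 13.9% lower in PEG-fused than in NC PNAs. Between PEG-fused and NC PNAs, 3 of 5 fibroblast markers were called higher and none lower (median log2 fold change 0.66), and 3 of 8 Schwann cell markers were called higher and none lower (median 0.79). Of 7 repair Schwann cell markers 4 were called higher. Among 4 endothelial markers 1 was called lower, among 5 neutrophil markers 2 were called lower, and among 7 adipocyte markers 4 were. Skeletal muscle fibre markers had a median of -4.26, with 2 of 6 called lower, and the 6 T cell markers were called lower with a median of -3.29. Against Unop nerves, 7 of 8 Schwann cell markers were called lower in PEG-fused PNAs and 8 in NC PNAs. The shares of all tested genes called lower were 28.6% and 32.3%.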
